A study of Mus musculus with 29 samples.

Results

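To ask how microglia with less active miR-99b-5p affect the neurons around them, mouse cortical neurons were co-cultured with microglia that had received an inhibitor of this microRNA (anti-miR-99b) or a scrambled oligonucleotide (sc-control), and the RNA of each whole co-culture was sequenced. These co-cultures were 15 of the 29 libraries of the series, 7 anti-miR-99b and 8 sc-control, and every gene of their count table was fitted without the other libraries. All cells came from CD1 mice. The neurons were prepared from embryos at embryonic day 17.5, and the microglia grew out of mixed glia of pups at postnatal day 1 in medium conditioned by L929 cells, a fibroblast line that secretes the growth factor CSF1. Only the microglia received an oligonucleotide, and both groups held microglia and an oligonucleotide. Primary microglia given the inhibitor or the scrambled oligonucleotide and sequenced alone, 4 anti-miR-99b and 4 sc-control libraries, served as a second comparison. Their sc-control libraries also served to sort genes by the culture that carries them. As another reference for this sorting, 3 libraries of prefrontal cortex were used, from 3-month-old C57BL/6J mice given the scrambled sequence. The labels give all co-cultures the batch number 1 and do not say whether libraries came from separate preparations of cells, so p-values here measure only the spread between these libraries, which may be technical.

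MicroRNAs are short RNAs that pair with messenger RNAs, mostly through the seed near their 5′ end, and lower the stability or translation of the message. An inhibitor that pairs with the microRNA itself frees such messages. Microglia are the resident macrophages of the brain. They clear debris through lysosomes and scavenger receptors, make the complement protein C1q and release cytokines such as TNF, and in the developing cortex they also remove synapses. In a co-culture the RNA of microglia and of the neuronal culture is read as one mixture, so a gene can be higher because its cells express more of it or because those cells contribute more of the RNA. In these bulk libraries a different number of microglia and a different amount of RNA per microglial cell cannot be told apart.

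The sequence of miR-99b-5p sets which messages it can pair with, and its seed is shared by the 2 other family members that RefSeq lists for the mouse. The mature sequences below, from RefSeq on GRCm38.p6, are written 5′ to 3′ with the seed, bases 2 to 8, in capitals.
mmu-miR-99b-5p, chr17:17830194-17830215, plus strand: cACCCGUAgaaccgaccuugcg
mmu-miR-99a-5p, chr16:77598940-77598961, plus strand: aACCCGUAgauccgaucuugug
mmu-miR-100-5p, chr9:41531437-41531458, plus strand: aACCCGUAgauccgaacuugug
Counted from 1 at the 5′ end and with the base of miR-99b-5p first, miR-99a-5p differed by C1A, A11U, C16U and C21U, and miR-100-5p by C1A, A11U, C16A and C21U. All differences lay outside the seed. Libraries of polyadenylated RNA do not capture mature microRNAs, and the Mir99b gene held 0 counts in all 7 anti-miR-99b libraries and 0 or 1 in the sc-control libraries, 5 of the 8 being at 0, so the inhibition of the microRNA could not be checked in these data.

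The libraries held 23269839 to 30929770 counts in the anti-miR-99b group and 24214958 to 37901110 in the sc-control group, and the common biological coefficient of variation was 0.0407. Anti-miR-99b replicate 7 stood apart on the first principal component, which carried 17.2% of the variance, with 18.1 against -8.03 to 5.90 in the other 6 libraries of its group. On the second component, with 12.9% of the variance, the groups did not overlap, at 2.28 to 7.61 in anti-miR-99b and -11.4 to 0.440 in sc-control co-cultures (exact two-sided permutation test, p = 0.0004662). Depth did not separate the groups, and 3.37 to 4.05% of anti-miR-99b reads and 3.53 to 3.92% of sc-control reads lay on mitochondrial genes.

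Markers of neurons, astrocytes and microglia were all detected. Neuronal markers were abundant, and levels are given as counts scaled to library size (CPM): Snap25, a protein of the synaptic vesicle fusion machinery, ran from 492 to 529 CPM in anti-miR-99b and from 508 to 530 CPM in sc-control co-cultures, and Rbfox3, which encodes the nuclear antigen NeuN, from 136 to 165 and from 139 to 160 CPM. The cortical cultures also held astrocyte RNA, with Gfap at 208 ± 7.27 CPM (SD, n = 7) and 203 ± 4.69 CPM (SD, n = 8) and Aqp4 at 198 ± 10.4 and 205 ± 8.31 CPM in the same order. Microglial markers were a small part of the RNA. Aif1, which encodes IBA1, ran from 11.7 to 15.9 and from 11.5 to 15.2 CPM, and the homeostatic markers P2ry12 and Tmem119 were below 1 CPM in every library. 

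Anti-miR-99b co-cultures had more RNA of microglial genes than sc-control co-cultures. Decreases among genes of the neuronal culture were small, and their number depended on the scaling, the lane and the exon length, as given below. Of 16193 genes tested with edgeR's quasi-likelihood test, 137 were higher (0.846%) and 90 lower (0.556%) at an adjusted p under 0.05 and a log2 fold change (log2FC) beyond 0.1 in size. The log2FC was positive for 8351 of all genes tested and negative for 7842. All anti-miR-99b libraries lay above all sc-control libraries for 49 genes (0.303% of all tested), 43 of them called, and below them for 45 (0.278%), 23 of them called. Leaving out 1 library moved the total of 227 calls to between 137 and 287, and it was over 1.5 times lower without anti-miR-99b replicate 10 (151) or 11 (137) and without sc-control replicate 8 (147) or 12 (138). With the sequencing lane as a block it was 121. Genes were then sorted by where they are carried. A gene was microglia-enriched if its mean CPM in sc-control primary microglia was at least 10-fold that in sc-control co-cultures, neuron-enriched if it was at least 10-fold lower, and otherwise remaining, with 0.1 CPM added to both means.

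Of the 758 microglia-enriched genes tested, 75 rose (9.89%) and none fell by this test. Unadjusted p was under 0.05 for 238 of them, against 2139 of all 16193 genes tested, and DESeq2 called 83 higher and 0 lower. Their median log2FC was 0.10, against 0.00 over all genes, and 78.2% had a positive value. For 29 of the 75 the groups were separate. With 1 library left out, 54 to 85 genes of the class were called, and with the lane as a block 51. Among 2259 neuron-enriched genes, 9 rose and 28 fell, with a median of -0.01. Their 37 calls became 24 without anti-miR-99b replicate 3 or 11 or sc-control replicate 4, 23 without sc-control replicate 12, 57 without anti-miR-99b replicate 12 and 17 with the lane as a block. Among the 13176 remaining genes, 53 rose and 62 fell, with a median of 0.00. These 115 calls became 72 and 58 without anti-miR-99b replicates 10 and 11, 62 and 59 without sc-control replicates 8 and 12, and 53 with the lane as a block. With factors from the neuron-enriched class instead of from all genes, the median of all genes moved to 0.02 and the split over all genes was 168 higher and 40 lower. It was then 11 higher and 14 lower in the neuron-enriched class, so that 14 of its 28 decreases were lost, and 78 higher and 26 lower in the remaining class. The class rule reads the sc-control co-cultures, which are also the baseline of the comparison. With sc-control prefrontal cortex in their place, 83 genes of the microglia-enriched class were called, and its median log2FC was 0.06.

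**Figure D1:**
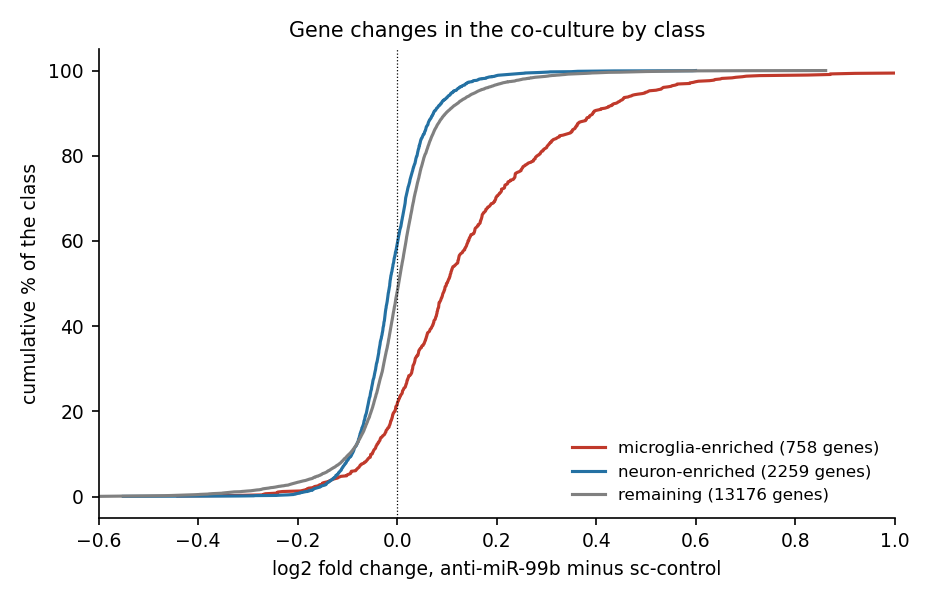
Cumulative share of genes (y axis, % of the class) against the log2 fold change between anti-miR-99b and sc-control co-cultures (x axis, shown from -0.6 to 1), with 1 line for each of the 3 gene classes. The line of the 758 microglia-enriched genes lies to the right of the other 2 lines, which run close to each other near 0.

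The amount of microglial RNA was expressed as a microglial RNA index, 100 times the summed CPM of the microglia-enriched class in a library over the mean of that sum in sc-control primary microglia. The index was 3.11 ± 0.0487 (SD, n = 7) in anti-miR-99b and 2.89 ± 0.0969 (SD, n = 8) in sc-control co-cultures, a difference of 7.48%. It ran from 3.04 to 3.19 in the former and from 2.79 to 3.04 in the latter, so that the lowest anti-miR-99b library and the highest sc-control library were nearly equal (exact two-sided permutation test, p = 0.0004662; smallest possible p 0.0001554). The class was picked for low levels in these sc-control co-cultures and not picked anew in each permutation. This favours a higher index in anti-miR-99b, so p-values of this index are too low by an unknown amount. The 4 sequencing lanes each held libraries of both groups, and anti-miR-99b was higher by 0.0917, 0.196, 0.248 and 0.268 index points in lanes 4 to 7 (exact permutation within lanes, p = 0.00208, the smallest possible).

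The size of the increase rested on how specific the genes were to microglia. For the 344 genes at least 30-fold higher in primary microglia, the index was 1.62 ± 0.0498 and 1.40 ± 0.0797, a difference of 16.1% (exact permutation test, p = 0.0003108). For the 20 microglia markers it was 1.36 ± 0.0696 and 1.17 ± 0.0887, a difference of 16.4% (p = 0.00155, exact permutation test). With a 5-fold limit, which admits genes that the neuronal culture also expresses, the difference was 4.00%, and with prefrontal cortex as the reference it was 4.01% (p = 0.00295, exact permutation test). Of these sets, only the 20 markers and the one with prefrontal cortex as the reference were not picked with the sc-control co-cultures. The summed level of the neuron markers overlapped between the groups, at 16464 to 17115 CPM in anti-miR-99b and 16703 to 17114 CPM in sc-control co-cultures.

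**Figure D2:**
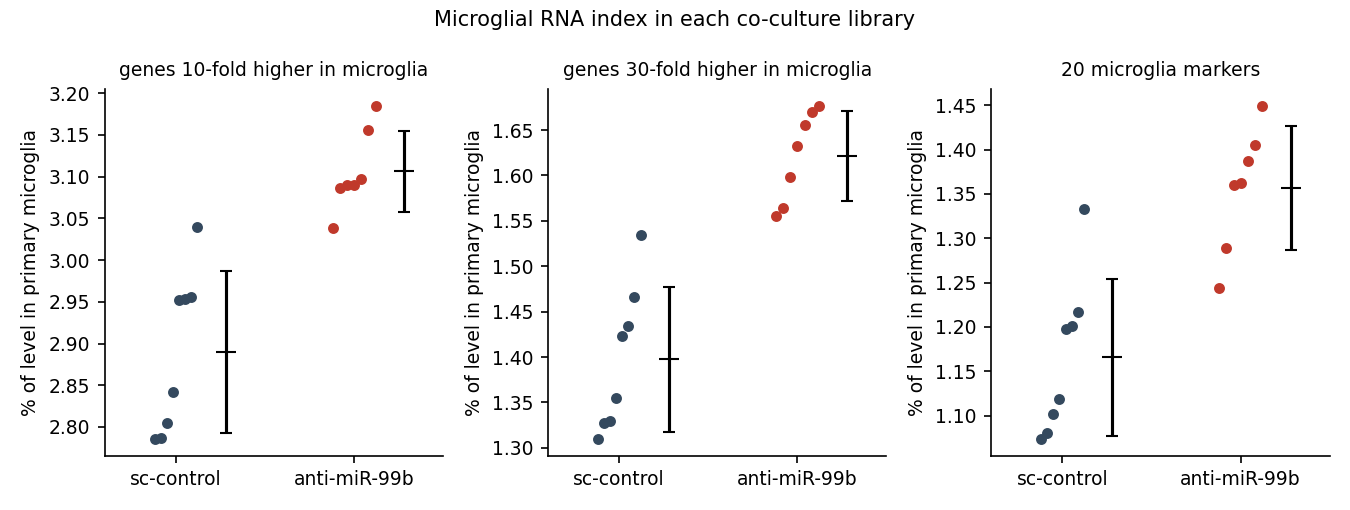
Microglial RNA index of each co-culture library (y axes, % of the level in sc-control primary microglia, not starting at 0) from the genes 10-fold or 30-fold higher in primary microglia and from the 20 microglia markers. Points are libraries and bars the mean ± SD of the 8 sc-control and 7 anti-miR-99b libraries, whose means are 2.89 and 3.11, 1.40 and 1.62, and 1.17 and 1.36 in the 3 panels.

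Among receptors of complement and damage signals, grouped here after their values were seen, C5ar1, Trem2, C3ar1 and Cd14 rose, and Tlr2, Tlr4 and Itgb2, with a log2FC of 0.15, 0.08 and 0.00, did not pass. C5ar1 (chr7:16246743-16259540, minus strand, GRCm38), the receptor for the complement fragment C5a, was at 5.19, 5.78 and 6.25 CPM (lowest, median and highest library) in anti-miR-99b and at 2.54, 3.00 and 3.45 CPM in sc-control co-cultures. Every anti-miR-99b library lay above every sc-control library, with a log2FC of 0.92 ± 0.077 (SE; adjusted p = 1.1e-07). Trem2, a lipid-sensing receptor of phagocytic microglia, was at 4.75, 5.26 and 6.42 against 2.43, 3.20 and 4.99 CPM, with 1 sc-control library reaching into the anti-miR-99b range (log2FC 0.70 ± 0.114, adjusted p = 0.0011). Its signalling adaptor Tyrobp rose by less, from 8.74 ± 1.08 to 11.3 ± 0.903 CPM (log2FC 0.37 ± 0.067, adjusted p = 0.0042). C3ar1, the receptor for C3a, rose from 20.8 to 26.7 CPM (log2FC 0.36), and Cd14, a co-receptor for bacterial lipopolysaccharide, from 6.43 to 9.13 CPM (log2FC 0.50).

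Of the microglia markers that encode receptors, Csf1r and Cx3cr1 rose. Csf1r, the receptor for CSF1 on which microglia depend, went from 9.15 ± 0.896 to 11.5 ± 0.347 CPM without overlap of the groups (log2FC 0.34 ± 0.054, adjusted p = 0.0010), and Cx3cr1, the receptor for the neuronal chemokine fractalkine, from 9.29 ± 1.63 to 12.2 ± 0.838 CPM with overlap (log2FC 0.39 ± 0.080, adjusted p = 0.011). Ly9, a SLAM-family receptor of immune cells, was at 8.75, 9.41 and 10.4 against 5.38, 6.43 and 7.38 CPM (log2FC 0.55 ± 0.062, adjusted p = 1.3e-05). Of the 19 microglia markers tested 7 rose and none fell, with a median log2FC of 0.25 and 18 positive values. All 19 belong to the microglia-enriched class, of which 9.89% were called higher. The other 12 markers did not pass. The adjusted p of Aif1 was 0.44, that of P2ry12 0.58 and that of Tmem119 0.95. Itgam, a complement receptor subunit and the 1 marker with a negative value, had a log2FC of -0.24 that did not pass.

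**Figure D3:**
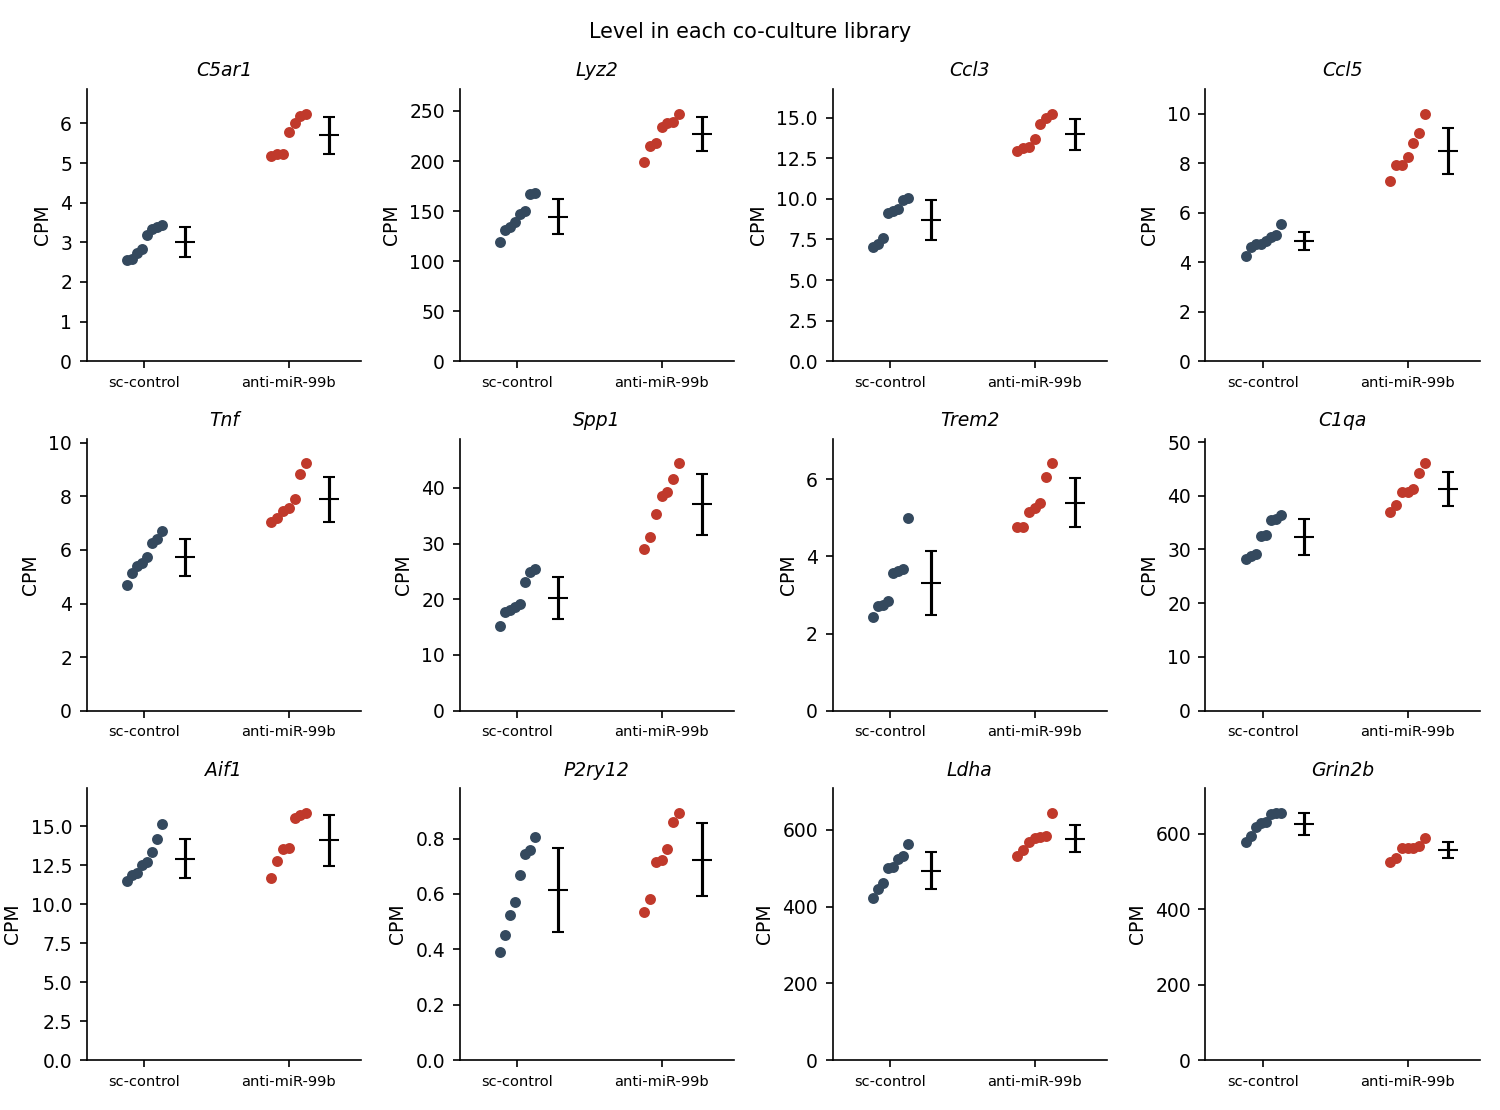
CPM (y axes, from 0) of 12 genes in each of the 8 sc-control and 7 anti-miR-99b co-culture libraries, with the mean ± SD beside the points. The groups do not overlap for C5ar1, Lyz2, Ccl3, Ccl5, Tnf, Spp1 and C1qa, and overlap for Trem2, Aif1, P2ry12, Ldha and Grin2b.

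Beside the counts for this and the following lists stand 0.846% called higher over all genes tested and 9.89% over the microglia-enriched class. Of 28 lysosomal and phagocytic genes tested, 21 of them microglia-enriched, 11 rose and none fell, with a median log2FC of 0.13. With normalization factors from the 344 genes at least 30-fold higher in primary microglia, called the scale of the 30-fold microglial genes here, 6 were higher and 10 lower. That scale moved the median log2FC of all genes to -0.20, so an increase smaller than that turns negative by its construction. Lyz2, the macrophage lysozyme, was at 199, 234 and 247 CPM in anti-miR-99b against 119, 143 and 168 CPM in sc-control co-cultures, with no overlap (log2FC 0.65 ± 0.058, adjusted p = 2.1e-07). Cd68, a lysosomal membrane glycoprotein, was at 16.9, 17.9 and 18.8 against 11.5, 13.0 and 15.6 CPM, also without overlap (log2FC 0.43 ± 0.053, adjusted p = 3.0e-05). The cathepsins, proteases of the lysosome, rose in unequal measure, with a log2FC of 0.31 for Ctss, 0.27 for Ctsz, 0.17 for Ctsd, 0.12 for Ctsl and 0.11 for Ctsb. Cybb, the catalytic subunit of the phagocyte NADPH oxidase, rose from 23.2 ± 1.97 to 30.6 ± 3.34 CPM (log2FC 0.40 ± 0.060, adjusted p = 0.00053). The proton pump subunit Atp6v0d2 had the widest change of the list at a low level, 0.465 to 1.03 against 0.118 to 0.619 CPM (log2FC 1.18). It is among the 11 but was not tested with at least 10 counts required in every library, so its value is a description. Housekeeping lysosomal genes such as Lamp1 and Rab7, with a log2FC of 0.01 and 0.02, did not pass.

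Of 19 tested genes of disease-associated microglia, a state described around amyloid plaques, 15 are microglia-enriched. Of all 19, 10 rose and none fell, with a median log2FC of 0.12. On the scale of the 30-fold microglial genes 5 were higher and 8 lower. The increases of Ctsb, Ctsd and Ctsl belong to both this list and the lysosomal one. Spp1, the secreted phosphoprotein osteopontin, was at 37.0 ± 5.52 against 20.3 ± 3.71 CPM, without overlap (log2FC 0.87 ± 0.095, adjusted p = 7.7e-06). Clec7a, a receptor for fungal glucans, and Gpnmb, a glycoprotein of phagocytes, rose by 0.69 and 0.47 on the log2 scale. Apoe, the main lipid carrier of glia and also an astrocyte gene, had a log2FC of 0.00, and Axl, a phagocytic receptor kinase, of -0.05, and neither passed. Homeostatic microglia genes gave 3 increases among 13 tested, 10 of which are microglia-enriched. The 3 were Csf1r, Cx3cr1 and Olfml3, an extracellular matrix protein that went from 1.79 to 2.44 CPM.

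Complement transcripts were uneven. The 3 chains of C1q, the initiator of the classical pathway, rose together: C1qa from 32.4 ± 3.36 to 41.2 ± 3.15 CPM, C1qb from 24.9 ± 2.91 to 29.6 ± 2.04 CPM and C1qc from 28.7 ± 2.99 to 36.2 ± 1.95 CPM. Their log2FC was 0.34 ± 0.055, 0.25 ± 0.059 and 0.33 ± 0.052, with an adjusted p of 0.0011, 0.031 and 0.00077. The groups did not overlap for C1qa and C1qc and overlapped for C1qb, whose call was lost in 7 of the 15 fits with 1 library left out. C3, the central component, which microglia and astrocytes can both make, was at 45.1 ± 7.37 against 50.8 ± 7.88 CPM and did not pass (log2FC -0.18, adjusted p = 0.40). Of the 18 complement genes tested, 10 of them microglia-enriched, 5 rose, the other 2 being C5ar1 and C3ar1. Among 15 genes of antigen presentation, 5 of them microglia-enriched, 1 rose. This was H2-D1, a heavy chain of MHC class I, which went from 99.9 ± 4.66 to 110 ± 6.39 CPM (log2FC 0.14 ± 0.034, adjusted p = 0.031). The call was lost in 7 of the 15 fits with 1 library left out.

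Cytokine transcripts, 8 of the 19 tested being microglia-enriched, rose in 6 of 19 cases and fell in none, with a median log2FC of 0.22. Ccl3 and Ccl4, chemokines that draw other leukocytes, were at 12.9, 13.7 and 15.2 against 7.04, 9.19 and 10.1 CPM and at 6.81, 7.22 and 7.38 against 4.09, 5.23 and 5.73 CPM. Neither showed any overlap of the groups (log2FC 0.67 and 0.48, adjusted p = 3.4e-06 and 6.7e-05). Ccl5, a chemokine for T cells and monocytes, was at 7.27, 8.26 and 10.0 against 4.25, 4.82 and 5.55 CPM (log2FC 0.79 ± 0.067, adjusted p = 1.1e-07). Tnf, the proinflammatory cytokine, was at 7.06, 7.58 and 9.24 against 4.67, 5.62 and 6.72 CPM (log2FC 0.46 ± 0.075, adjusted p = 0.0012). Cxcl2, a neutrophil chemokine, rose from a low level, 0.925 ± 0.218 to 1.71 ± 0.282 CPM (log2FC 0.86 ± 0.140, adjusted p = 0.0012). Il1b ran from 1.29 to 3.59 against 1.21 to 1.77 CPM and did not pass (log2FC 0.48, adjusted p = 0.17), and neither did Tgfb1 (log2FC 0.20, adjusted p = 0.34).

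Effectors of acute inflammation gave 4 increases among 20 genes tested, 10 of which are microglia-enriched. Saa3, an acute-phase amyloid protein, was at 15.1, 19.4 and 24.2 against 9.09, 11.6 and 13.1 CPM (log2FC 0.75 ± 0.088, adjusted p = 2.0e-05), Marco, a scavenger receptor, at 81.3, 91.5 and 94.6 against 55.9, 66.3 and 75.8 CPM (log2FC 0.42 ± 0.051, adjusted p = 2.5e-05), and Acod1, the enzyme that makes itaconate in activated macrophages, at 15.8, 19.8 and 24.7 against 11.6, 13.0 and 14.1 CPM (log2FC 0.59 ± 0.071, adjusted p = 2.5e-05). The groups were separate for all 3. All 3 lie in the remaining class, as their mean in sc-control primary microglia was less than 10-fold that in sc-control co-cultures. Saa3 averaged 11.5 CPM in sc-control co-cultures and 65.6 CPM in sc-control primary microglia, Marco 66.7 and 142 CPM, and Acod1 13.0 and 39.4 CPM. On the scale of the 30-fold microglial genes 4 genes of this list were higher and 6 lower.

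At low levels, 3 microglia-enriched genes had a difference beyond 1 on the log2 scale without overlap of the groups. They passed the filter on low counts through their level in the anti-miR-99b libraries, since too few sc-control libraries reached it, and their values are given as a description. Mybpc3, a myosin-binding protein known from cardiac muscle, was at 0.774 ± 0.238 against 0.224 ± 0.124 CPM (log2FC 1.77 ± 0.263). Ifi204, an interferon-inducible DNA sensor, was at 0.837 ± 0.175 against 0.366 ± 0.0851 CPM (log2FC 1.19 ± 0.178), and Nlrc4, an inflammasome component, at 0.534 ± 0.145 against 0.240 ± 0.0788 CPM (log2FC 1.12 ± 0.217). None of the 3 passed with DESeq2. With at least 10 counts required in every library they were not tested, nor was Atp6v0d2, and 71 genes of the class rose. In the opposite direction and in the remaining class, Siglece, an inhibitory receptor for sialic acid on myeloid cells, fell from 3.41 ± 0.343 to 2.52 ± 0.234 CPM (log2FC -0.43 ± 0.081, adjusted p = 0.0043). Spic, a macrophage transcription factor picked after its values were seen, was at 0.315 against 0.718 CPM (log2FC -1.17) and was also not tested under that requirement.

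A larger share of microglial RNA would raise all microglial genes by one factor, so the genes were also scaled to microglial RNA itself. With normalization factors from the microglia-enriched class, the median log2FC of all genes moved from 0.00 to -0.11, and 133 genes were called higher (0.821%) and 5885 lower (36.3%). Within the class, 86 genes were then higher and 35 lower, and 64 of the 86 were among the 75 that rose before. With factors from the genes 30-fold higher in primary microglia, the median of all genes moved to -0.20, and 54 genes of the class were higher, 45 of them among the 75, and 179 lower. This stricter fit called 11761 of the 16193 genes and took its factors as known, so its adjusted p-values leave out the error of those factors. On this stricter scale C5ar1 was still higher by 0.72, Spp1 by 0.68, Ccl5 by 0.60, Trem2 by 0.51, Ccl3 by 0.48, Lyz2 by 0.45, Cd14 by 0.31, Tnf by 0.26 and Cd68 by 0.24 (all log2FC, adjusted p at most 0.0016). Ccl5 and Tnf lie in the remaining class. Ccl3, at 143 CPM in sc-control primary microglia and 8.71 CPM in sc-control co-cultures, is not among the 30-fold genes. For Ccl3, Ccl5 and Tnf this scale therefore does not separate the microglial share. C1qa and C1qc were higher by 0.15 and 0.14 (adjusted p = 0.014 and 0.025). Csf1r, C1qb, Ctss and Ctsz, with a log2FC of 0.14, 0.05, 0.11 and 0.08, no longer passed, and Ctsb was at -0.09.

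With the index itself as a covariate, no gene was called, 776 genes had an unadjusted p under 0.05, and the lowest adjusted p was 0.10. By its construction this fit asks for a difference between libraries of equal index, and the groups hardly overlapped in the index.

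Of 37 interferon-stimulated genes tested, 13 of them microglia-enriched, 3 were called higher, Ifi204, Parp14 and Rsad2. Ifi204 passed the filter on low counts through the anti-miR-99b libraries, so its value is a description. All 37 had a positive log2FC, with a median of 0.18, while on the scale of the 30-fold microglial genes 5 were higher and 7 lower. Rsad2, the antiviral enzyme viperin, was at 4.58 ± 0.475 against 3.52 ± 0.539 CPM (log2FC 0.39, adjusted p = 0.025; lost in 4 of the 15 fits with 1 library left out), and Parp14, an ADP-ribosyltransferase, at 8.57 ± 1.08 against 6.58 ± 0.828 CPM (log2FC 0.39, adjusted p = 0.011). Irf7, the transcription factor that amplifies the interferon response, was at 0.54 and just missed the limit (adjusted p = 0.058). Zbp1, the nucleic acid sensor on which the study centred, was at 0.322 to 0.681 CPM in anti-miR-99b and 0.196 to 0.589 CPM in sc-control co-cultures, with a log2FC of 0.19 ± 0.206 (adjusted p = 0.76).

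The comparison was also made in primary microglia sequenced alone, which share no library with the co-cultures. In the study, microglia of the co-cultures were treated, then harvested and kept with neurons before RNA was taken. Transfer, medium and time since treatment thus differ along with the presence of neurons, and their effects cannot be told apart. There, 55 of 14953 genes were called higher (0.368%), and 27 of 40 interferon-stimulated genes tested were among them, with a median log2FC of 0.40 against 0.18 in the co-culture. Of the 37 tested in both, 32 had the larger value in primary microglia. Zbp1 rose there by 0.61 (adjusted p = 0.011) and Rsad2 by 0.62. For cytokines the median was 0.05 in primary microglia, with 1 of 19 called, and Ccl3, Ccl5 and Tnf had values of 0.00, -0.09 and 0.02. Over the 13932 genes tested in both, 129 were higher in the co-culture and 51 in primary microglia, and 7 were higher in both, which is 5.43% of the former and 13.7% of the latter. No gene was called in opposite directions.

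In a fit of both experiments, the response differed between the cultures for 42 of 17579 genes (0.239%). Of the 41 that were tested in each culture as well, 34 had the larger log2FC in the co-culture, 25 of them microglia-enriched, and 7 the smaller. A larger microglial share would raise microglial genes in the co-culture alone. This test therefore cannot tell a change of share from a change of expression per cell. C5ar1 differed by 0.90 (log2FC in the co-culture minus that in primary microglia, adjusted p = 1.0e-08), Ccl3 by 0.66 (3.7e-06), Ccl5 by 0.87 (2.3e-05), Lyz2 by 0.61 (3.3e-05) and Spp1 by 0.82 (adjusted p = 0.00013). In primary microglia C5ar1 was at 446 CPM in sc-control libraries with a log2FC of 0.00, while it rose in the co-culture. Of the interferon-stimulated genes 1 of 40 differed, in the direction of a smaller response in the co-culture. For Zbp1 the adjusted p of the difference was 0.77.

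**Figure D4:**
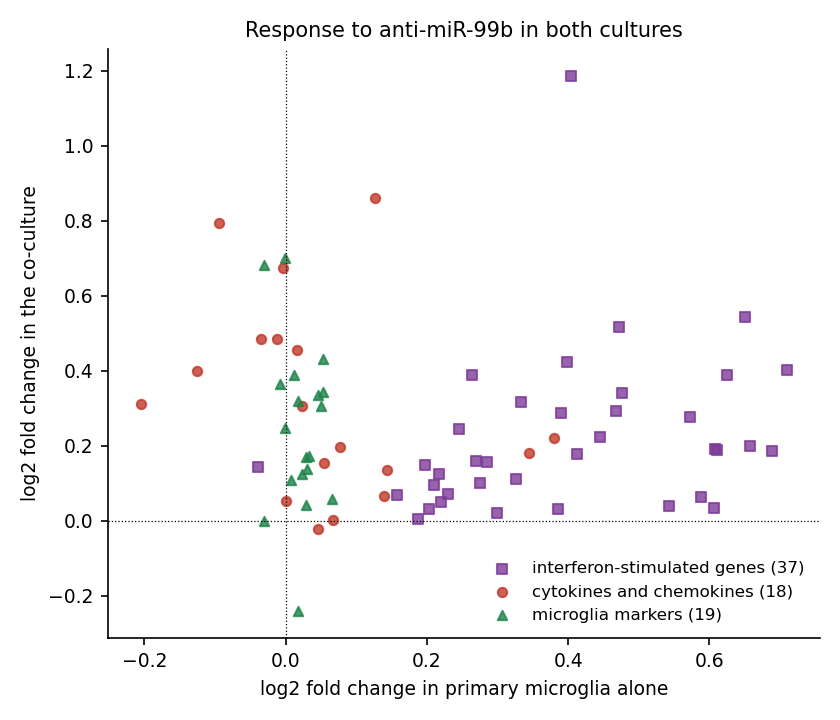
Log2 fold change between anti-miR-99b and sc-control in the co-culture (y axis) against that in primary microglia alone (x axis) for 37 interferon-stimulated genes (squares), 18 cytokines and chemokines (circles) and 19 microglia markers (triangles) tested in both. The interferon-stimulated genes spread along the x axis with a median of 0.39 in primary microglia and 0.18 in the co-culture, while most cytokines and microglia markers lie near 0 on the x axis and above 0 on the y axis.

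In the neuron-enriched class, 9 genes rose. Cpne7, a calcium-dependent membrane-binding protein, rose from 46.6 ± 3.50 to 54.8 ± 3.38 CPM, Rgs11, a brake on G-protein signalling, from 31.2 ± 2.84 to 37.0 ± 2.55 CPM, and Vstm5, a membrane protein of neurons, from 5.44 ± 0.672 to 6.98 ± 0.613 CPM, with a log2FC of 0.23, 0.24 and 0.35. Grrp1 had the widest change, 1.17 to 1.74 CPM (log2FC 0.59, adjusted p = 0.0094), and Pip5kl1, a lipid kinase-like protein, went from 3.67 to 4.55 CPM (log2FC 0.31, adjusted p = 0.019; lost in 1 of the 15 fits with 1 library left out). On the scale of the 30-fold microglial genes, Grrp1 alone of these 5 was still called. Values are about 0.20 lower on that scale, so small increases are lost by its construction.

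The 28 neuron-enriched genes that fell did so by small amounts and held large genes of excitability and synaptic structure. Grin2b (chr6:135713233-136173511, minus strand, GRCm38), the NMDA receptor subunit of immature synapses, was at 525, 562 and 589 CPM in anti-miR-99b and 579, 630 and 656 CPM in sc-control co-cultures, with a narrow overlap (log2FC -0.17 ± 0.028, adjusted p = 0.0015). Cacna1e, an R-type calcium channel, was at 218, 227 and 238 against 242, 253 and 267 CPM, with no overlap (log2FC -0.15 ± 0.025, adjusted p = 0.0011). Ryr2, the calcium release channel of the endoplasmic reticulum, fell from 129 ± 4.86 to 116 ± 2.88 CPM (log2FC -0.15), and Scn8a, an axonal sodium channel, from 159 ± 3.94 to 147 ± 4.79 CPM (log2FC -0.11). Pclo, a scaffold of the presynaptic active zone, fell from 195 ± 16.2 to 171 ± 7.01 CPM (log2FC -0.19), and Map1b, a microtubule-binding protein of growing axons, by 0.10 on the log2 scale, a call lost in 10 of the 15 fits with 1 library left out. Zfhx4, a homeodomain transcription factor, ran from 16.2 to 18.7 CPM in anti-miR-99b and from 20.2 to 22.3 CPM in sc-control co-cultures (log2FC -0.20), and Thsd7a, a membrane protein, from 138 ± 5.37 to 126 ± 2.04 CPM (log2FC -0.13).

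Synaptic gene groups as a whole gave few calls. Over all 16193 genes tested, 7842 had a negative log2FC, 0.556% were called lower and 2139 had an unadjusted p under 0.05. Of 24 presynaptic genes 1 fell (Pclo) with 20 negative values, of 20 postsynaptic genes none fell with 19 negative values and 4 unadjusted p under 0.05 (DESeq2 called 1 lower), and of 19 glutamate receptor genes 1 fell (Grin2b) with 15 negative values; none of these genes rose. Among 29 voltage-gated channel genes 4 fell (Cacna1e, Kcna2, Scn8a and Cacna1d), and 27 had a negative value with a median log2FC of -0.05. The calls of Kcna2 and Cacna1d were lost in 4 and 11 of the 15 fits with 1 library left out. Of 16 GABA receptor genes 1 fell (Gabrg3, log2FC -0.12, lost in 12 of those 15 fits), and of 35 genes of axon growth and guidance 2 fell, among them the semaphorin receptor Plxna4 (log2FC -0.12). No call was made among 20 genes induced by neuronal activity, where Npas4 had the lowest p and was at 7.34 ± 0.580 against 8.18 ± 0.469 CPM (adjusted p = 0.17), or among 20 cortical transcription factors, with an unadjusted p under 0.05 for 1 and 4 genes and no call by DESeq2. Of the 20 pan-neuronal markers 1 rose, Eno2, the neuronal enolase (log2FC 0.14, adjusted p = 0.020; lost in 3 of the 15 fits). It was at -0.06 on the scale of the 30-fold microglial genes, which takes any increase this small below 0 by its construction. The synaptic and channel genes were long, and long genes had lower values in general. Whether length accounts for the counts of negative values was not tested. Over all genes with exons of 6595 bases or more the median log2FC was -0.02, and over the neuron-enriched ones -0.04. The median was 11418 bases for the voltage-gated channel genes and 9228 bases for the postsynaptic genes, against 4226 bases for all genes tested. With a trend over exon length removed from each library, the median log2FC was -0.0025 over all genes and -0.0148 over the neuron-enriched class. It was then -0.0144 for presynaptic, -0.0277 for postsynaptic, -0.0281 for glutamate receptor, -0.0096 for GABA receptor and -0.0218 for voltage-gated channel genes.

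Genes with long exons had lower values than genes with short exons in each class. The median log2FC of genes with exons of 2570 bases or fewer and of 6595 bases or more was 0.14 and 0.06 in the microglia-enriched, 0.02 and -0.04 in the neuron-enriched and 0.03 and -0.02 in the remaining class. The 90 genes called lower had a median exon length of 15636 bases and the 137 called higher one of 3062.5 bases. Among genes with exons of 6595 bases or more, 82 of 4037 genes fell, 25 of them neuron-enriched, 57 remaining and 0 microglia-enriched, and 9 rose, while among genes with exons of 2570 bases or fewer 1 of 4040 fell and 54 rose. Each library's deviation from the mean log2 level of all libraries, in long minus short genes, was -0.0311 ± 0.0291 (SD, n = 7) in anti-miR-99b and 0.0240 ± 0.0378 (SD, n = 8) in sc-control co-cultures (exact permutation test, p = 0.00839). After a trend over exon length was removed from each library, 112 genes were called, 94 higher and 18 lower, and 6 of the 28 neuron-enriched decreases remained. Grin2b (adjusted p = 0.042), Zfhx4 (0.039) and the non-coding RNAs B930095G15Rik (0.0013) and B230334C09Rik (0.0038) kept their call, and Cacna1e (0.056), Ryr2 (0.13), Scn8a (0.31) and Map1b (0.25) did not. Of the 75 microglia-enriched increases 58 remained. The cause of the length difference was not tested.

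**Figure D5:**
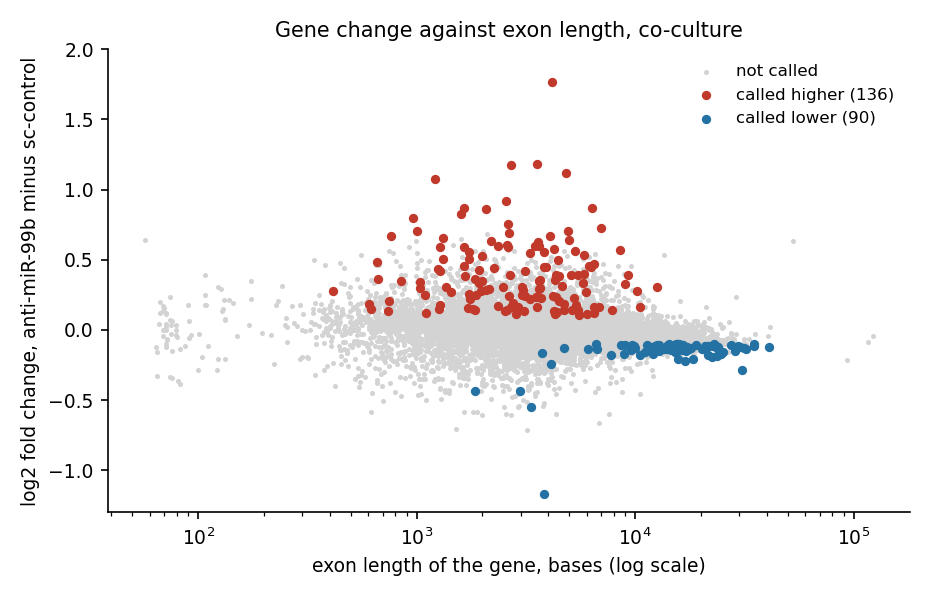
Log2 fold change between anti-miR-99b and sc-control co-cultures (y axis) against the exon length of the gene in bases (x axis, log scale), with genes called higher in red, genes called lower in blue and other genes in grey. The genes called lower gather at the long end, with a median of 15636 bases, and those called higher at shorter lengths, with a median of 3062.5 bases.

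Among the remaining genes, those that fell most clearly were long genes of broad expression. Htt, which encodes huntingtin, was at 114, 122 and 124 against 132, 134 and 136 CPM without overlap (log2FC -0.15 ± 0.021, adjusted p = 0.00033; after removal of the length trend 0.12). Nfat5, the transcription factor of osmotic stress, fell from 58.2 ± 2.40 to 50.4 ± 2.38 CPM (log2FC -0.21), Zbtb20, a transcription factor of hippocampal neurons and astrocytes, from 197 ± 15.7 to 162 ± 11.1 CPM (log2FC -0.28), and Fat3, a giant protocadherin, from 67.3 ± 3.38 to 59.4 ± 1.58 CPM (log2FC -0.18). Tnrc6b and Ago2 encode parts of the complex through which microRNAs silence messages. Tnrc6b was at 116, 124 and 127 against 130, 140 and 150 CPM (log2FC -0.18 ± 0.030, adjusted p = 0.0011), and Ago2 at 168, 180 and 190 against 191, 196 and 198 CPM (log2FC -0.14 ± 0.026, adjusted p = 0.0059). Neither showed overlap of the groups, and after removal of the length trend the adjusted p was 0.019 for Tnrc6b and 0.12 for Ago2.

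Of 18 genes of glycolysis and of the response to low oxygen 6 rose, and all 18 had a positive log2FC, with a median of 0.19. Over all genes tested, 0.846% were called higher. Ldha, lactate dehydrogenase A, was at 532, 578 and 645 against 422, 501 and 562 CPM, with overlap (log2FC 0.22 ± 0.048, adjusted p = 0.013). Aldoa, an aldolase of glycolysis, rose from 633 ± 41.6 to 708 ± 24.7 CPM (log2FC 0.16), Egln3, a prolyl hydroxylase that hypoxia itself induces, from 12.2 ± 1.39 to 16.1 ± 1.95 CPM (log2FC 0.39), and Bnip3, a mitophagy receptor, from 24.1 ± 3.50 to 33.1 ± 6.77 CPM (log2FC 0.44). Slc2a1, the glucose transporter GLUT1, and Eno1, an enolase, rose by 0.24 and 0.18. In primary microglia the same 18 genes had a median of 0.03 and no call. On the scale of the 30-fold microglial genes 3 of the 18 were higher and 3 lower, and Aldoa was at -0.04. That scale takes any increase under about 0.20 below 0 by its construction.

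RefSeq promoters, the first listed for each gene and 250 bases before to 50 bases after its start, were searched on both strands for 6 letters shared by many hypoxia response elements, GACGTG. Of the 6 genes of the list that rose, Slc2a1, Ldha and Egln3 held them in this window, and Aldoa, Bnip3 and Eno1 did not. They were found in 12 of the 45 promoters of all remaining-class genes that rose (26.7%), Acod1 and Insig1 among them, in 9.62% of the promoters of the class and in 6.35% of all 27025 promoters. This motif and those that follow were chosen after the calls were known, and a match describes the letters only. A window around those of Slc2a1, Ldha and Egln3, read on the strand of the gene on GRCm38.p6, shows the match in capitals, as GACGTG or as its reverse complement.
Slc2a1, chr4:119108698-119108723, plus strand: tcccgccccgGACGTGctccccaggc
Ldha, chr7:46845760-46845785, plus strand: tgggttcccgCACGTCcgctgggctc
Egln3, chr12:54204089-54204114, minus strand: gtgcatctcaGACGTGagatccaggt
A motif of GAAA, any 2 bases and GAAA, part of the interferon-stimulated response element, was in 9 of 55 promoters of microglia-enriched genes that rose (16.4%), in 7.08% of that class and in 3.49% of all promoters. An NF-κB motif of GGGA, any 2 bases and TTCC was in 3 of 104 promoters of genes that rose (2.88%) against 1.43% of all. In Cxcl2 this match overlaps itself on the other strand.
Cxcl2, chr5:90903792-90903821, plus strand: cctgagctcaGGGAATTTCCctggtccccg
Ctss, chr3:95526755-95526784, plus strand: gtctttaaatGAAACCGAAAtgaaagttca

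Other metabolic and housekeeping groups moved little. Of 20 genes of cholesterol synthesis 4 rose (Pmvk, Insig1, Mvd and Nsdhl, with a log2FC of 0.11 to 0.16), and 19 were positive. The 4 calls were lost in 7, 7, 8 and 11 of the 15 fits with 1 library left out, and none of the 4 passed once the length trend was removed. All 4 were negative on the scale of the 30-fold microglial genes, which takes increases this small below 0 by its construction. None of 31 nuclear oxidative phosphorylation genes, 29 cytosolic ribosomal protein genes and 7 mitochondrial genes tested was called. Their medians were 0.05, 0.07 and 0.03, an unadjusted p under 0.05 was found for 10, 8 and 0 of them (2139 of 16193 over all genes), and DESeq2 made no call either. Of 18 stress genes Hmox1, heme oxygenase 1, and Atf3, a stress transcription factor, rose (log2FC 0.22 and 0.29), and the call of Atf3 was lost in 2 of the 15 fits with 1 library left out. Both are microglia-enriched. Of 20 apoptosis genes Cdkn1a, the cell cycle inhibitor p21, rose from 75.7 ± 4.39 to 84.9 ± 3.80 CPM (log2FC 0.17). It was at -0.04 on the scale of the 30-fold microglial genes, by the same construction.

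Markers of the other cells that such a culture can hold did not pass. No call was made among 14 astrocyte, 12 oligodendrocyte-lineage, 10 excitatory-neuron, 13 inhibitory-neuron and 10 vascular markers tested, where 2, 1, 3, 1 and 1 had an unadjusted p under 0.05, and DESeq2 called none. Over all genes tested, 2139 of 16193 had an unadjusted p under 0.05. The summed level of the astrocyte markers was 3477 to 3759 CPM in anti-miR-99b and 3523 to 3840 CPM in sc-control co-cultures, and that of the vascular markers 32.3 to 39.4 and 33.8 to 37.9 CPM. Of 11 markers of peripheral macrophages and blood only Mrc1 was high enough to be tested, and their sum stayed at or below 1.93 CPM. Proliferation genes were lower in 14 of 15 cases with a median log2FC of -0.09, with 5 unadjusted p under 0.05. None passed in edgeR, and DESeq2 called 1 lower. Mki67, a marker of dividing cells, was at 43.2 ± 2.12 against 46.9 ± 1.75 CPM (adjusted p = 0.060).

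The targets that carry the seed of miR-99b-5p were examined in the longest annotated 3′ UTR of each gene. The complement of the seed, TACGGGT, occurred in 217 of 14123 genes (1.54%), in 2 of 135 genes that rose (1.48%) and in 4 of 86 that fell (4.65%). The genes that fell had longer 3′ UTRs, with a median of 4096 bases against 1398 bases over all. Genes with the site had a median log2FC of -0.01 and genes without it of 0.00. Sites of 4 genes, from GRCm38 and read on the strand of the gene, have the match in capitals: Tnf, which rose, Ago2 and Dgkh, a diacylglycerol kinase, which both fell, and Mtor, the growth-controlling kinase and a textbook target of the family (log2FC -0.04, adjusted p = 0.47).
Tnf, chr17:35199398-35199425, minus strand: actgtaatcgcccTACGGGTcattgaga
Ago2, chr15:73106126-73106153, minus strand: agtttctaaagaaTACGGGTctgtggtg
Dgkh, chr14:78563336-78563363, minus strand: ttactgcagaaatTACGGGTcaattaag
Mtor, chr4:148557136-148557163, plus strand: ggtaactgagaaaTACGGGTtttgactt
Of 12 listed targets of the family none rose and 1 fell (Ago2), with a median log2FC of -0.04 and 10 negative values.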

How the data were processed

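Co-cultures of primary cortical neurons and microglia, and primary microglia and prefrontal cortex used only to sort genes or as a second comparison, were sequenced as TruSeq libraries of polyadenylated RNA. Per the labels, reads were processed by the authors with bcl2fastq 2.20.2 and FastQC 0.11.5, aligned to mm10 with STAR 2.5.2b and counted with featureCounts 1.5.1, and the raw counts per gene were deposited for each library. The strand setting and annotation release are not given in the sources used here, so reads of genes that overlap on opposite strands, such as Csf1r and Hmgxb3 or Ctsb and Fdft1, cannot be told apart. Symbols and positions came from a GENCODE annotation of GRCm38, which matched 48349 of 48709 gene identifiers. All columns were assigned to a library by name. No pair of libraries agreed within counting noise (chi-square per degree of freedom at least 1.97 in anti-miR-99b and 1.48 in sc-control co-cultures).

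Counts were fitted in R 4.3.3 with edgeR 4.0.16 (filterByExpr, TMM factors, quasi-likelihood test of group, no covariate), and p-values were adjusted over all genes tested by the Benjamini-Hochberg method. Every adjusted p in the text is from this edgeR test unless another is named. A gene was called at an adjusted p under 0.05 and a log2FC beyond 0.1 in size. Single values were compared by exact two-sided permutation of the libraries. On simulated counts for 16193 genes of the co-culture comparison, 71% of 100 genes changed by a log2FC of 0.32 and 84% of 100 genes changed by 0.58 were recovered, with 4 false calls. The simulation drew each gene independently, without deviations that genes of a library share, such as that over exon length. Its false calls therefore do not give the error rate of these data. Figures and summaries used Python 3.11.15.

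The members and gene lists were chosen with earlier results of these data known. Named genes were those the study discusses for these cells, the 5 lowest p-values and the 3 largest changes without overlap in each class and direction, up to 4 called members of each list (or, with no call, the member with the lowest p) and markers of the cell types. A gene that met this rule is not reported here. Other genes, such as Atp6v0d2, Clec7a, Irf7 and Spic, were named after their values were seen. Alternatives were DESeq2 1.42.0, RLE factors, other count filters, blocks for the lane or the replicate number, 1 RUVs factor, TMM factors from 1 gene class, the index as a covariate, other class limits and 1 library left out at a time. A trend over exon length, the joint removal of replicate 7 of anti-miR-99b and replicate 6 of sc-control, and TMM factors from the genes 30-fold higher in primary microglia were added after the data were seen.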

Additional observations from a re-analysis of the deposited data

Results flagged for a closer look

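In 11 of the 198 sets of libraries tested, 1 library stood apart from the others of its group by Dixon's criterion, which chance gives in about 5 of 100 sets. Anti-miR-99b replicate 7 stood apart in 4 of them. It was at 0.851 CPM for Nlrc4 (0.430 to 0.542 CPM in the other 6), at 46.96 CPM for Bnip3 (25.98 to 34.12 CPM), at 202.7 CPM for Nsdhl (172.4 to 182.5 CPM) and at 0.0302 for the deviation of long minus short genes (-0.0550 to -0.0256), where it lay on the side of the sc-control co-cultures. Anti-miR-99b replicate 10 was at 61.17 CPM for C3 (39.72 to 46.24 CPM) and at 2.292 CPM for Cxcl2 (1.518 to 1.829 CPM). Zfhx4 was at 16.22 CPM in anti-miR-99b replicate 5 (18.27 to 18.69 CPM), Dgkh at 18.07 CPM in replicate 3 (19.52 to 20.55 CPM) and Snap25 at 492 CPM in replicate 12 (515.2 to 528.5 CPM). Among sc-control co-cultures, replicate 1 was at 0.515 CPM for Mybpc3 (0.105 to 0.248 CPM), and replicate 6 was at 7.44 on the first principal component (-7.827 to -1.25). With both the anti-miR-99b library of replicate 7 and the sc-control library of replicate 6 left out, 194 genes were called and 66 of the 72 named calls remained.

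For 19 of the 96 named genes the response differed between the co-culture and primary microglia by the interaction test of edgeR (adjusted p under 0.05). A larger microglial share would raise microglial genes in the co-culture alone, and the test cannot tell this from a change per cell. The difference, as the log2FC in the co-culture minus that in primary microglia, was 0.90 for C5ar1, 0.61 for Lyz2, 0.66 for Ccl3, 0.48 for Ccl4, 0.87 for Ccl5, 0.43 for Tnf, 0.72 for Cxcl2, 0.82 for Spp1, 0.69 for Trem2, 0.36 for Tyrobp, 0.28 for Csf1r, 0.49 for Ly9, 0.44 for Cd14, 0.36 for Cd68, 0.34 for Cybb, 0.64 for Saa3, 2.11 for Mybpc3 and 1.09 for Nlrc4. Mybpc3 and Nlrc4 were tested in the co-culture only because their counts were high enough in anti-miR-99b libraries, so their values are a description. Siglece alone of the 19 had the other sign, at -0.52.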

How the results depend on the processing

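Of the 72 named calls, 69 remained with DESeq2 (which lost Mybpc3, Ifi204 and Nlrc4), 72 with RLE factors, 70 without a filter on low counts, 69 with at least 10 counts in every library, 58 with the lane as a block, 72 with an RUVs factor, 67 with TMM factors from the neuron-enriched class, 54 after removal of the length trend and 61 to 71 with 1 library left out. The number of genes changed in the co-culture (227) was 121 with the lane, 515 with the RUVs factor and 112 without the length trend. Of genes changed in the microglia-enriched class (75) the RUVs factor gave 118. The number of genes changed in the neuron-enriched class (37) was 57 with DESeq2, 17 with the lane, 105 with the RUVs factor, 13 without the length trend and 24 with a 30-fold class limit, and that of genes changed in the remaining class (115) was 53 with the lane, 292 with the RUVs factor and 41 without the length trend.

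With TMM factors from the microglia-enriched class, genes changed in the co-culture were 6018, genes changed in the microglia-enriched class 121, genes changed in the neuron-enriched class 1180 and genes changed in the remaining class 4717. The median log2FC of the microglia-enriched class was then -0.0092 and the median log2FC of the neuron-enriched class -0.127. With factors from the genes 30-fold higher in primary microglia these counts were 11761, 233, 1875 and 9653, with medians of -0.0982 and -0.217. With the index as a covariate the counts were 0, 0, 0 and 0, and the medians -0.0127 and 0.003. With TMM factors from the neuron-enriched class the median of that class was 0.0032. The median of the microglia-enriched class (0.0998) was 0.0483 with a 5-fold and 0.198 with a 30-fold class limit.

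Named calls changed sign for C1qb (-0.10) and Cx3cr1 (-0.028) with the index as a covariate, and for Ctsb (-0.0008) and Nsdhl (-0.0013) with factors from the microglia-enriched class. With factors from the genes 30-fold higher in primary microglia this held for Eno2 (-0.0644), Ctsb (-0.0909), H2-D1 (-0.0607), Cdkn1a (-0.0355), Aldoa (-0.0424), Pmvk (-0.041), Insig1 (-0.0671), Mvd (-0.0624) and Nsdhl (-0.0922), and the uncalled mt-Cytb, Uqcrh, Rps3 and Gfap were at -0.16, -0.11, -0.12 and -0.16. These factors moved the median of all genes to -0.20, so small increases turned negative by construction.

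With 1 library left out, the counts ran from 137 to 287 over all genes, from 54 to 85, 23 to 57 and 58 to 147 in the microglia-enriched, neuron-enriched and remaining classes, and from 32 to 52 for the interaction. The medians ran from 0.09 to 0.11 and from -0.02 to -0.01, and the index difference from 6.93 to 8.28%. The interaction (42 genes) called 74 genes with DESeq2 and 107 without a filter.

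The groups share replicate numbers 2, 5, 11 and 12, whose libraries deviated from their group means with a correlation of 0.0469, 0.0197, -0.0021 and -0.0145, each lower than with some other number, so the numbers do not pair the libraries. A replicate block on these 8 libraries called 95 genes over all, 28, 19 and 48 in the microglia-enriched, neuron-enriched and remaining classes, with a median log2FC of the neuron-enriched class of -0.0008 and 44 of the 72 named calls. The index difference was 6.11% (exact permutation, p = 0.125, the smallest possible).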
